A study of Mus musculus with 8 samples.

Results

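Catsper1, Catsper2, Catsper3, Catsper4, Catsperb and Kcnu1 encode ion channel subunits of mouse sperm, and their RNA levels are described here in testis and in RNA bound by an antibody to the germ cell protein RNF17. The 6 genes were chosen by symbol from tables of read counts with 19276 entries, and all 6 passed the filter on low counts in each of 5 comparisons. The 8 libraries came from C57BL/6 mice aged 6 weeks and form 4 groups of 2. Whole adult testis, with no antibody, was sequenced from animals heterozygous for RNF17 and from animals homozygous for RNF17. RNA that came down with an RNF17 antibody from testis lysate (immunoprecipitate, IP) was sequenced from the same 2 genotypes, so that the homozygous IP measures what the same procedure recovers in homozygotes. The labels do not describe the allele. They do not tie a library to an animal either, so p-values reflect only how far these libraries differ, which may be technical.

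CatSper is a calcium channel of the sperm tail. Catsper1 to Catsper4 encode its pore-forming subunits, which assemble together, and Catsperb encodes an auxiliary subunit that spans the membrane beside the pore. Calcium entry through CatSper drives hyperactivation, the vigorous beating that sperm need to fertilise. Kcnu1 encodes SLO3, the alkalinity-sensitive potassium channel that hyperpolarises the sperm membrane. The channels act in sperm, but their mRNAs are made in germ cells of the testis.

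Reads assigned to genes numbered 5661754 to 50575649 per library. Levels are given as CPM, the usual unit that sets a gene's count against its library's total, here scaled over the 8 libraries by the TMM method, with replicate 1 first. The targeted gene followed the labels: Rnf17 was at 507 and 551 CPM in heterozygous testis and at 50.3 and 97.6 CPM in homozygous testis. The libraries of a group differed by more than sampling noise, most in testis. In whole testis, fewer cells of a type and less RNA per cell cannot be told apart, so markers of germ cell stages were summed in each library. The 23 elongating spermatid genes (among them Odf2 and Tnp1) summed to 11698 and 42925 CPM in heterozygous and 3143 and 4155 CPM in homozygous testis. The 19 round spermatid genes (among them Hook1 and Dpy19l2) summed to 2637 and 7041 against 1073 and 2037 CPM, and the 15 pachytene spermatocyte genes (among them Hspa2 and Ldhc) to 5628 and 12797 against 4158 and 9325 CPM. Other cell types went the other way: 11 Sertoli cell genes (among them Clu and Ctsl) summed to 514 and 825 against 1093 and 1463 CPM, 8 Leydig cell genes (among them Cyp17a1 and Star, with Insl3 at 0) to 271 and 363 against 681 and 831 CPM, and 9 spermatogonia genes (among them Kit and Uchl1) to 148 and 124 against 264 and 225 CPM. Spermatid sums were thus lower, and these 3 sums higher, in both homozygous testis libraries. The part of these markers in the channel gene differences was not tested.

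The 6 channel genes had lower mean CPM in homozygous than in heterozygous testis, with Catsper1 the farthest apart and Catsper2 the nearest. Their log2 fold changes, homozygous over heterozygous, ran from -3.14 to -0.49 with a median of -0.97, where the median of all genes tested was 0.04. EdgeR's quasi-likelihood test called 0 of the 6 at a Benjamini-Hochberg adjusted p under 0.05, against a background of 0% of 14332 genes. An unadjusted p under 0.05 was reached by 1 of the 6, Catsper1, and by 1453 of all genes (10.1%). DESeq2 called 1 of the 6, Catsper1, and 710 of 14054 genes (5.05%). For 3 genes, Catsper1, Catsper3 and Catsperb, both homozygous testis libraries lay below both heterozygous ones, as for 19.7% of all genes tested. Leaving out 1 testis library in turn, the Catsper1 log2 fold change ran from -3.46 to -2.77, while those of Catsper2 and Kcnu1 changed sign. The fit on all 8 libraries called 1 of the 6, Catsper1, against 4.62% of all genes. In a fit on the other 6 libraries without both testis libraries numbered 1, where the spread came from the IP libraries alone, edgeR called 4 of the 6 as lower in homozygotes (Catsper1, Catsper3, Catsper4 and Kcnu1), against 15.5% of all genes. Homozygous testis replicate 2 stood apart in 6 genes of the epididymis and duct, which summed to 73.2 CPM there and to 3.15 to 10.6 CPM in the other 3 testis libraries. Without it, with homozygous testis a lone library taken to vary like the heterozygous ones, the members' log2 fold changes ran from -2.92 (Catsper1) to -0.23 (Kcnu1).

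In the IPs the genes parted. Catsper1, Catsper3 and Catsperb were higher in the heterozygous IP, Catsper4 was higher in the homozygous IP, and Kcnu1 overlapped at a high level. EdgeR called 4 of the 6 genes between the IPs, against 30.1% of 13427 genes. Of these, 3 were higher in the heterozygous IP (background 17.7%) and 1 was lower (background 12.4%). DESeq2 called these and Catsper2, against 26.5% of all genes. The IP groups did not overlap for 5 of the 6, against 68.3% of all genes tested. In a fit on all 8 libraries, 1 of the 6 was called between the IPs, Catsper1, against 3.43% of all genes. The log2 differences of the other 3 were of like size there, at 2.19 for Catsper3, -1.55 for Catsper4 and 0.65 for Catsperb.

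**Figure D1:**
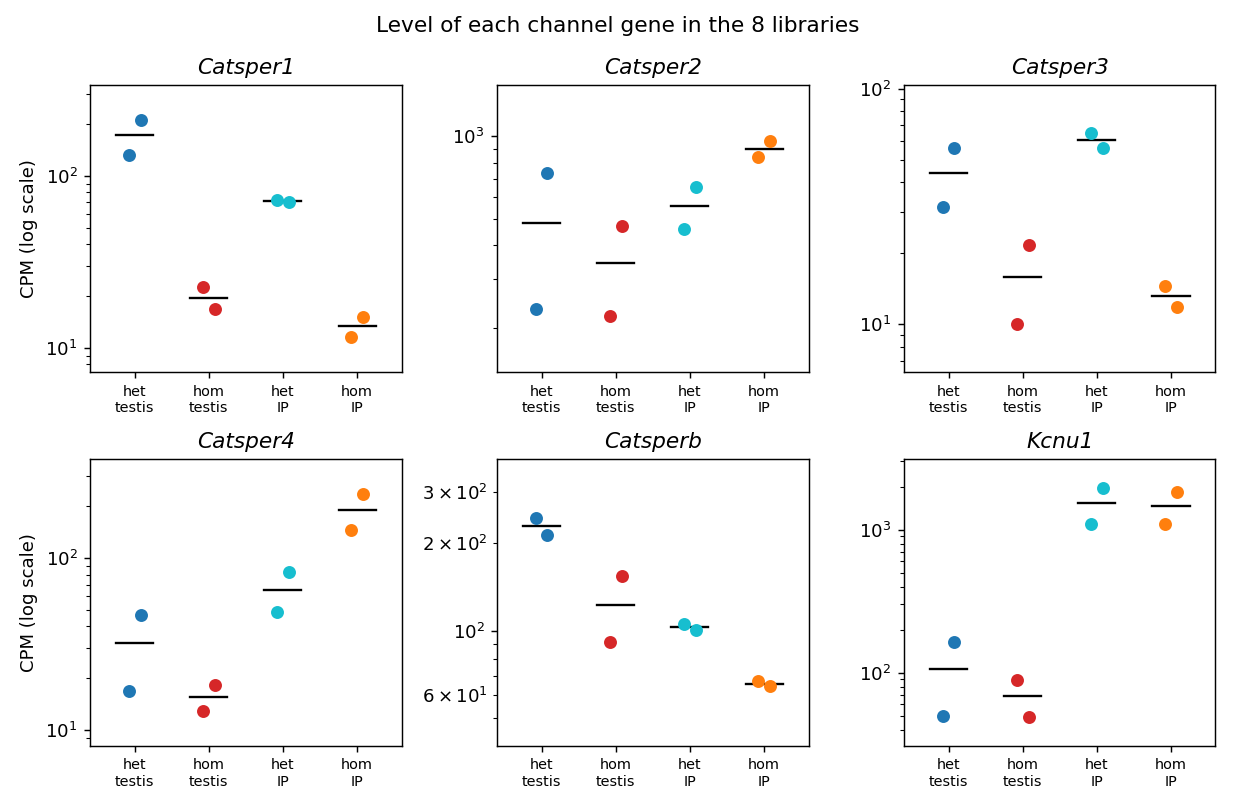
CPM on a logarithmic axis for each of the 6 channel genes in heterozygous (het) and homozygous (hom) testis and RNF17 IP; points are the 2 libraries of a group and lines their mean. Kcnu1 lies higher in all 4 IP libraries than in any testis library, and Catsper1 is lower in all 4 homozygous libraries than in any heterozygous library.

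**Figure D2:**
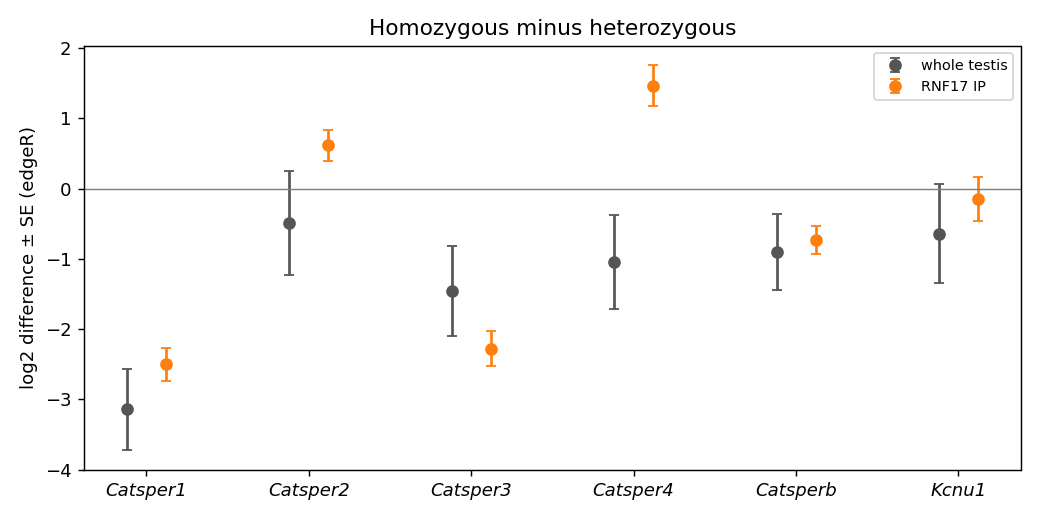
Log2 difference of homozygous minus heterozygous libraries for each gene, in whole testis and in RNF17 IP, with the standard error from edgeR as bars. Catsper2 and Catsper4 lie below 0 in testis and above 0 in IP, whereas Catsper1, Catsper3, Catsperb and Kcnu1 lie below 0 in both.

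Catsper1, the pore subunit after which the channel was named, was at 133 and 211 CPM in testis of heterozygotes and 22.4 and 16.7 CPM in testis of homozygotes, and at 72.2 and 70.2 CPM in the heterozygous and 11.5 and 15.0 CPM in the homozygous IP. Every homozygous library thus lay below every heterozygous library. In testis the log2 fold change was -3.14 (± 0.58 SE, adjusted p = 0.133 by edgeR and 5.14e-05 by DESeq2). In the authors' deposited table of genotype differences, Catsper1 was the only 1 of the 6 genes listed, among 734 listed entries. The tables of read counts hold 19276 entries. Catsper1 had a log2 fold change of -2.44 there (standard error 0.50) and an adjusted p of 1.18e-04. Entries with an adjusted p as high as 0.0991 (Lyzl6) were listed too. Being listed is therefore not a call at the threshold used here. Between the IPs Catsper1 was higher in heterozygotes by 2.50 on the log2 scale (± 0.24 SE, adjusted p = 1.89e-05 by edgeR).

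Catsper1 CPM was lower in IP than in testis in both genotypes, without overlap. The log2 difference of IP minus testis was -1.23 (± 0.37 SE, adjusted p = 0.229 by edgeR) in heterozygotes and -0.56 (± 0.44 SE, adjusted p = 0.474) in homozygotes. The heterozygous minus homozygous difference of these was -0.72 (95% interval -1.92 to 0.48, adjusted p = 0.711 by edgeR), so an unequal IP to testis ratio was not shown.

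Catsper3, another pore subunit, was at 31.3 and 56.1 CPM in testis of heterozygotes and 10.1 and 21.8 CPM in testis of homozygotes, and at 64.8 and 55.8 CPM in the heterozygous and 14.6 and 11.8 CPM in the homozygous IP. The genotypes did not overlap in testis or in IP, whereas IP and testis overlapped within each genotype. In testis the log2 fold change was -1.46 (± 0.65 SE, adjusted p = 0.518 by edgeR and 0.347 by DESeq2). Between the IPs Catsper3 was higher in heterozygotes by 2.28 on the log2 scale (± 0.25 SE, adjusted p = 4.50e-05 by edgeR). IP minus testis was 0.51 (± 0.42 SE, adjusted p = 0.530 by edgeR) in heterozygotes and -0.29 (± 0.49 SE, adjusted p = 0.768) in homozygotes. Catsper3 RNA was thus not shown to be enriched or depleted by the antibody in either genotype.

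Catsper4, also a pore subunit, went the other way in the IPs. It was at 16.8 and 46.7 CPM in testis of heterozygotes and 12.9 and 18.2 CPM in testis of homozygotes, and at 48.2 and 82.4 CPM in the heterozygous and 145 and 237 CPM in the homozygous IP. The testis groups overlapped, and both homozygous IP libraries lay above the other 6. In testis its log2 fold change was -1.04 (± 0.67 SE, adjusted p = 0.679 by edgeR). Between the IPs it was lower in heterozygotes, with a log2 difference of -1.47 (± 0.29 SE, adjusted p = 0.00311 by edgeR).

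Within homozygotes Catsper4 was 11.2 times as high in IP as in testis between the libraries numbered 1 and 13.0 times between those numbered 2. The labels do not tie same-numbered libraries to each other, so these and later ratios by number do not rest on pairs. The log2 difference was 3.61 (± 0.44 SE, adjusted p = 0.00373 by edgeR), rank 28 of 13334 genes. EdgeR called 2 of the 6 genes as higher in the homozygous IP than in homozygous testis, Catsper4 and Kcnu1, against 1.84% of all genes (3.28% were called in either direction). In the fit on all 8 libraries Catsper4 had the same difference (3.61) and missed the threshold (adjusted p = 0.0525). Without homozygous testis replicate 1, where the spread came from the IP libraries alone, edgeR called 4 of the 6, Catsper2 higher and Catsperb lower beside these, against 17.6% of all genes. Without homozygous testis replicate 2, edgeR called 3 of the 6 (Catsper2, Catsper4 and Kcnu1), against 32.5% of all genes, and Catsper4 was higher in IP by 3.80 and Kcnu1 by 3.96 on the log2 scale.

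In heterozygotes the Catsper4 ratios were 2.86 and 1.76, with a log2 difference of 1.09 (± 0.58 SE, adjusted p = 0.361 by edgeR) and rank 1929 of 13562. The heterozygous minus homozygous difference in IP over testis was -2.58 (± 0.77 SE, 95% interval -4.33 to -0.84). In edgeR it had an unadjusted p of 0.00866 and an adjusted p of 0.361, and 0 of the 6 genes passed, against 0% of 14180 genes. An unadjusted p under 0.05 was reached by 1 of the 6 and by 1373 of all genes (9.68%). DESeq2 called 1 of the 6, Catsper4 (adjusted p = 0.0406), and 3.78% of 6482 genes. EdgeR with the replicate block, no filter or other scaling did not call it (adjusted p = 0.215, 0.331 and 0.331). Without heterozygous testis replicate 1 the Catsper4 difference was -3.14, and over the other omissions of a single library it ran from -2.92 to -1.65. Without both testis libraries numbered 1, where the spread came from the IP libraries alone, it was -2.92.

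Catsper2, a pore subunit without which mouse sperm fail to hyperactivate, was at 233 and 733 CPM in testis of heterozygotes and 220.2 and 469.7 CPM in testis of homozygotes, and at 458 and 651 CPM in the heterozygous and 841 and 961 CPM in the homozygous IP. The testis groups overlapped, with a wider spread within each genotype than between their means, and both homozygous IP libraries were the highest of the 8. The testis log2 fold change was -0.49 (± 0.74 SE, 95% interval -2.24 to 1.26, adjusted p = 0.876 by edgeR), and it turned positive without heterozygous testis replicate 2 or homozygous testis replicate 1. Between the IPs the log2 difference was -0.62, lower in heterozygotes (± 0.22 SE). DESeq2 called it (adjusted p = 0.0290) and edgeR did not (adjusted p = 0.0585). Homozygous IP minus homozygous testis was 1.38 (± 0.49 SE, adjusted p = 0.127 by edgeR and 0.0251 by DESeq2). Exons of Catsper2 and of Pdia3, on the opposite strand, overlap by 18 bases in the GENCODE M21 annotation, and reads there cannot be told apart where strand was not used.

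The pore subunits thus differed among themselves, and the sequences before their start sites are shown for the 3 that a RefSeq table of promoters held (build GRCm38.p6, whereas the count tables use mm9; Catsperb was also held, Catsper1 and Kcnu1 were not matched). Each is the 250 bases before the start, 5′ to 3′ on the gene's strand, with capitals marking CCAAT or its reverse complement ATTGG: Catsper2 at chr2:121413793-121414042 on the minus strand, Catsper3 at chr13:55784329-55784578 on the plus strand and Catsper4 at chr4:134227384-134227633 on the minus strand.
Catsper2: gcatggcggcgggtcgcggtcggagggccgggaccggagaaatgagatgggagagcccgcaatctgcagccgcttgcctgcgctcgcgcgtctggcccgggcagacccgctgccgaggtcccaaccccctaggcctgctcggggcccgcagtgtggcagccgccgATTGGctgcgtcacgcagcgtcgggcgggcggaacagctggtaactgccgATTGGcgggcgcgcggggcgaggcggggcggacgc
Catsper3: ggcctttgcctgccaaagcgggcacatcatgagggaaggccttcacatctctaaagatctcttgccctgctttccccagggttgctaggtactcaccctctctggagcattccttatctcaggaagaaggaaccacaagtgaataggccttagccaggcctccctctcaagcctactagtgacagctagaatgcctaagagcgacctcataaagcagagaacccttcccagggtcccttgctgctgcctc
Catsper4: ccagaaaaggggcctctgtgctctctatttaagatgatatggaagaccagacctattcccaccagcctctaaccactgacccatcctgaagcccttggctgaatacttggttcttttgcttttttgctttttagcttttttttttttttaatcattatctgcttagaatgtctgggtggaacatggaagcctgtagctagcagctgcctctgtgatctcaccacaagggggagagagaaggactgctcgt

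The window before Catsper2 was 74.8% G and C, a share reached by 4.19% of the 32851 promoter entries, and it held 35 CG pairs. Pdia3 exons overlap those of Catsper2 on the opposite strand, and whether this window also lies in Pdia3 was not checked. The windows before Catsper3, Catsper4 and Catsperb were 54%, 45.2% and 38% G and C, with 2, 1 and 1 CG pairs. Of the motifs searched on both strands, CCAAT occurred 2 times before Catsper2 and 1 time before Catsperb, and in 33.8% of all entries. GGGCGG occurred 3 times before Catsper2, with 1 pair of matches overlapping each other and none overlapping CCAAT, and in 32.7% of all entries. TATAAA (12.4% of all entries) and TGACGTCA, the full cAMP response element (1.55%), were not found in these 4 windows. A match describes the letters only.

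To compare levels between genes, CPM was divided by the length of the merged exons in GENCODE M21. On this scale Catsper2 held the largest share of the 4 pore subunits in each of the 8 libraries, at 40.8% and 55.4% in testis of heterozygotes, 71.5% and 79.7% in testis of homozygotes, 54.5% and 61.1% in the heterozygous IP and 72.8% and 67.0% in the homozygous IP. The share of Catsper1 was 39.2% and 26.9% in testis of heterozygotes, 12.3% and 4.78% in testis of homozygotes, 14.5% and 11.1% in the heterozygous IP and 1.69% and 1.77% in the homozygous IP. Catsper1 thus held the least of the 4 in the homozygous IP. The share of Catsper4 stayed low in testis, at 5.17% and 6.21% in heterozygotes and 7.36% and 5.42% in homozygotes. It was 10.1% and 13.6% in the IP of heterozygotes and 22.1% and 29.0% in that of homozygotes. Catsper3 exceeded Catsper4 in the heterozygous IP, at 20.9% and 14.2%, and lay below it in the homozygous IP, at 3.43% and 2.24%. A share depends on the other 3 genes and comes from the same counts, so it is a description with no test.

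**Figure D3:**
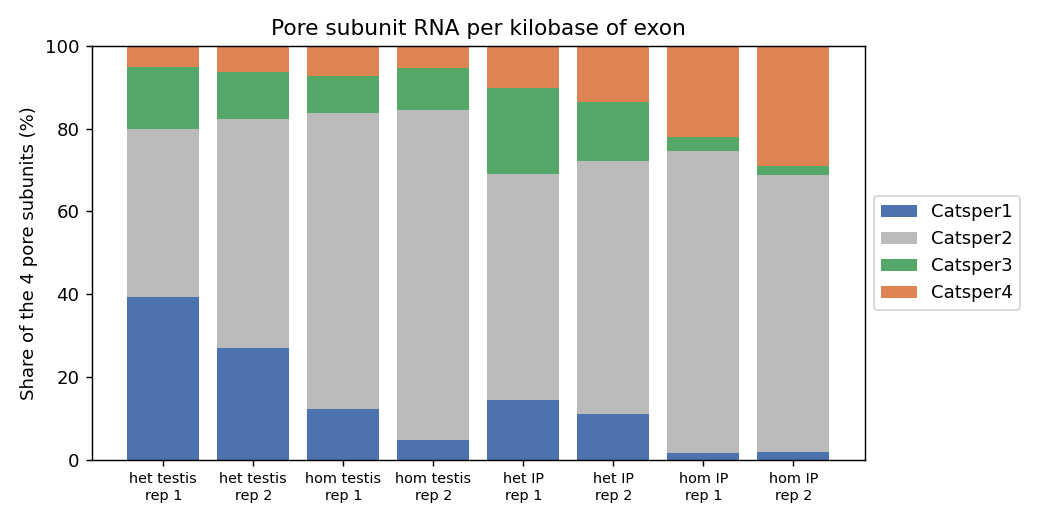
Share of each pore subunit in the summed CPM per kilobase of exon of Catsper1 to Catsper4, in percent, for each of the 8 libraries. Catsper1 held 39.2% and 26.9% in heterozygous testis and 1.69% and 1.77% in homozygous IP, where Catsper4 held 22.1% and 29.0%.

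Catsperb, the auxiliary subunit, was at 243 and 214 CPM in testis of heterozygotes and 91.1 and 154 CPM in testis of homozygotes, and at 105 and 101 CPM in the heterozygous and 67.0 and 64.4 CPM in the homozygous IP. That is the order of the 4 groups from high to low, and homozygous testis and heterozygous IP overlapped. The testis log2 fold change was -0.90 (± 0.54 SE, adjusted p = 0.660 by edgeR). Between the IPs Catsperb was higher in heterozygotes by 0.73 on the log2 scale (± 0.19 SE, adjusted p = 0.0150 by edgeR), a call lost at like size when the heterozygous arm was a lone library, without heterozygous IP replicate 1 (0.71, adjusted p = 0.113) or replicate 2 (0.75, adjusted p = 0.0634). IP minus testis was -1.13 (± 0.34 SE, adjusted p = 0.230 by edgeR) in heterozygotes and -0.90 (± 0.39 SE, adjusted p = 0.192) in homozygotes. Neither passed the threshold, although the IP libraries lay below the testis libraries of their genotype.

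Kcnu1, the SLO3 potassium channel, was at 50.0 and 164 CPM in testis of heterozygotes and 88.9 and 49.3 CPM in testis of homozygotes, and at 1101 and 1960.0 CPM in the heterozygous and 1090.1 and 1844 CPM in the homozygous IP. All 4 IP libraries lay far above all 4 testis libraries, and the genotypes overlapped within each kind of library. In homozygotes the IP exceeded testis by 4.40 on the log2 scale (± 0.57 SE, adjusted p = 0.00529 by edgeR), rank 16 of 13334 genes. In heterozygotes the difference was 3.90 (± 0.68 SE), rank 17 of 13562, which passed in DESeq2 (adjusted p = 6.62e-06) and not in edgeR (adjusted p = 0.206). Kcnu1 thus ranked near the top by enrichment in both genotypes.

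In the heterozygous comparison of IP with testis edgeR called 0 of the 6 genes, against 0% of 13562 genes. An unadjusted p under 0.05 was reached by 3 of the 6 (Catsper1, Catsperb and Kcnu1) and by 2460 of all genes (18.1%). DESeq2 called 1 of the 6, Kcnu1, and 603 genes in all (5.03%). Without heterozygous testis replicate 2, edgeR called 6 of the 6, against 52.4% of all genes, and without replicate 1 it called 3, against 40.8%. In these fits the spread came from the IP libraries alone. It called 1, Kcnu1, without heterozygous IP replicate 1, against 0.124% of all genes.

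Between the IPs of the genotypes Kcnu1 differed by 0.15 on the log2 scale, heterozygous minus homozygous (± 0.31 SE, 95% interval -0.53 to 0.82, adjusted p = 0.755 by edgeR). IP over testis differed between genotypes by -0.57 (95% interval -2.54 to 1.39, adjusted p = 0.873 by edgeR). High Kcnu1 in the IP was therefore measured in homozygotes too, where Rnf17 RNA was at 214 and 393 CPM in the IP against 1263 and 1189 CPM in heterozygotes. In testis the log2 fold change of Kcnu1 was -0.64 (± 0.71 SE, adjusted p = 0.822 by edgeR). Homozygous testis was at 1.78 times the heterozygous level between the libraries numbered 1 and at 0.302 times between those numbered 2, in opposite directions.

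**Figure D4:**
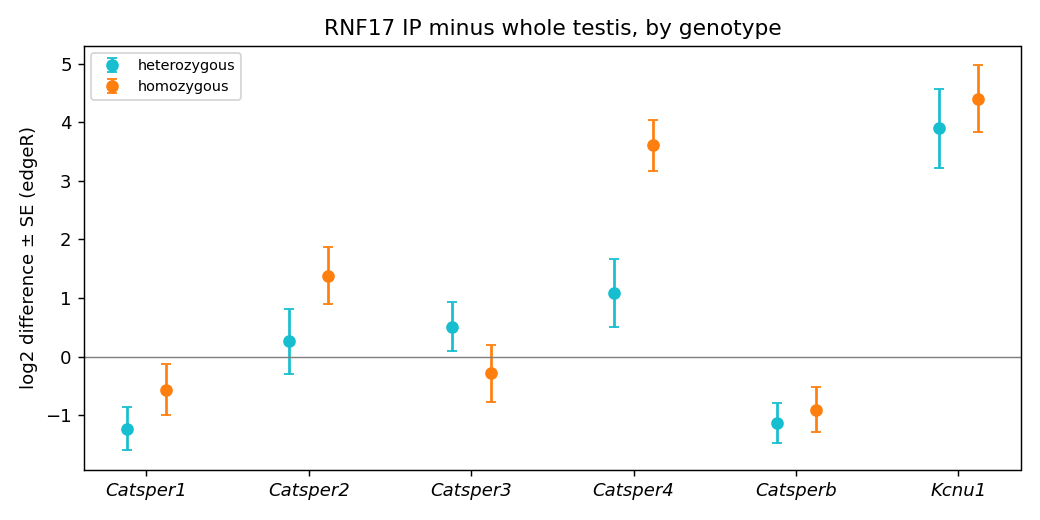
Log2 difference of RNF17 IP minus whole testis for each gene in heterozygotes and homozygotes, with the standard error from edgeR as bars. Kcnu1 lies at 3.90 and 4.40, Catsper4 at 1.09 and 3.61, and Catsper1 and Catsperb lie below 0 in both genotypes.

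Lrrc52, which encodes the auxiliary subunit of SLO3, was singled out after its values were seen. It was at 14.5 and 15.8 CPM in testis of heterozygotes and 2.64 and 1.42 CPM in testis of homozygotes, and at 12.2 and 10.1 CPM in the heterozygous and 0.757 and 1.17 CPM in the homozygous IP. The IP libraries lay below the testis libraries of their genotype, unlike those of Kcnu1, which is a description with no test. The homozygous IP levels of Lrrc52 were low and rest on few reads. Between the IPs Lrrc52 was higher in heterozygotes by 3.59 on the log2 scale (± 0.45 SE, adjusted p = 1.41e-04 by edgeR).

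Of 11 genes listed as further CatSper subunits or partners, 8 were found and tested. In testis 3 lay above 0 and 5 below, with a median of -0.41. EdgeR called 0 of them, 1 had an unadjusted p under 0.05, and DESeq2 called 1: in both cases this was Efcab9, which encodes the calcium sensor of the channel complex. Over all genes these shares were 0%, 10.1% and 5.05%. Efcab9 was at 303 and 417 CPM in heterozygous and 67.4 and 38.3 CPM in homozygous testis (log2 fold change -2.77 ± 0.60 SE, adjusted p = 0.139 by edgeR and 7.26e-04 by DESeq2). Between the IPs edgeR called 3 of the 8: Efcab9 higher in heterozygotes, and both copies of the gamma subunit gene, Catsperg1 and Catsperg2, lower (all genes: 17.7% higher and 12.4% lower). The median log2 difference of the 8 was -0.28, against 0.03 for all genes tested.

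Efcab9 was at 146 and 91.4 CPM in heterozygous and 41.6 and 44.9 CPM in homozygous IP (log2 difference 1.55 ± 0.25 SE, adjusted p = 7.70e-04 by edgeR). Its levels, like those of Catsper1, were higher in heterozygotes in both kinds of library. Catsperg1 was at 668 and 1146 CPM in heterozygous and 1713 and 2209 CPM in homozygous IP (-1.03 ± 0.27 SE, adjusted p = 0.0149 by edgeR). Catsperg2 was at 106 and 141 against 214 and 322 CPM (-1.03 ± 0.24 SE, adjusted p = 0.00728 by edgeR). These are near copies, so how their reads were divided is uncertain.

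The other 5 were not called between the IPs by edgeR or DESeq2. Tmem146, the older symbol of the delta subunit gene Catsperd, was at 83.8 and 102 CPM in heterozygous and 95.4 and 117 CPM in homozygous IP. The entry 1700019N12Rik, now Catsperz, was at 141 and 121 against 187 and 191 CPM in the IPs, and at 26.8 and 58.1 against 14.2 and 71.3 CPM in testis. All 4 of its IP libraries thus lay above all 4 testis libraries, as for Kcnu1. Gm16432, now Catspere2, was at 15.3 and 21.1 against 28.2 and 28.4 CPM in the IPs. Als2cr11, now C2cd6, which helps to place the channel in the tail, was at 239.8 and 239 against 208 and 164 CPM. Slco6c1, an organic anion transporter found with the channel, was at 123 and 126 against 125 and 63.1 CPM, with the genotypes overlapping.

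Among 26 genes listed as other sperm channels and transporters, 25 were found and 19 could be tested between the IPs. EdgeR called 7 higher in heterozygotes and 2 lower (all genes: 17.7% higher and 12.4% lower), with a median log2 difference of 0.21. In testis, 20 could be tested, edgeR called 0, 3 had an unadjusted p under 0.05 and DESeq2 called 3, all lower in homozygotes. Over all genes these shares were 0%, 10.1% and 5.05%. Atp1a4, the sodium pump of the sperm tail, was at 366 and 938 CPM in heterozygous and 53.1 and 61.4 CPM in homozygous testis (log2 fold change -3.51, adjusted p = 0.133 by edgeR and 1.65e-05 by DESeq2). In the IPs it was at 328 and 199 against 23.5 and 23.2 CPM (log2 difference 3.58 ± 0.27 SE, adjusted p = 3.35e-06 by edgeR). The genotypes did not overlap in either kind of library.

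Cftr, a chloride and bicarbonate channel, was at 153 and 153 against 58.3 and 50.2 CPM in the IPs (log2 difference 1.58, adjusted p = 1.51e-04 by edgeR), and overlapped between genotypes in testis. Clcn3, a chloride transporter, was at 81.7 and 84.0 against 50.5 and 38.5 CPM (0.98, adjusted p = 0.00587 by edgeR). Slc9a10, the older symbol of the sperm sodium-proton exchanger gene Slc9c1, was at 148 and 148 against 211 and 226 CPM (adjusted p = 0.0726 by edgeR). Like Catsper2, it had higher CPM in both homozygous IP libraries without passing the edgeR threshold. The same held for Nhedc1, now Slc9b1, at 135 and 143 against 182 and 181 CPM (adjusted p = 0.247), and for the calcium pump gene Atp2b4, at 106 and 99.5 against 171 and 141 CPM (adjusted p = 0.0688).

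Bicarbonate, cAMP and calcium signalling prepares sperm for fertilisation together with these channels. Of 20 genes listed for it, 18 could be tested between the IPs, and edgeR called 9 higher in heterozygotes and 2 lower (all genes: 17.7% higher and 12.4% lower), with a median of 0.93. In testis, 19 could be tested, edgeR called 0, 8 had an unadjusted p under 0.05, and DESeq2 called 7, all lower in homozygotes. Over all genes these shares were 0%, 10.1% and 5.05%. Akap4, an anchoring protein of the fibrous sheath of the tail, was at 869.8 and 3317 CPM in heterozygous and 69.4 and 69.0 CPM in homozygous testis. In the IPs it was at 439 and 354 against 31.4 and 44.7 CPM (log2 difference 3.46 ± 0.24 SE, adjusted p = 2.13e-06 by edgeR). Akap3, its partner in the sheath, was at 443 and 451 against 108 and 139.6 CPM in the IPs (1.94, adjusted p = 4.14e-05 by edgeR). Both also stand in the elongating spermatid list, and they are not the only genes that it shares with the signalling list.

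Pde1a, a calmodulin-dependent phosphodiesterase, was at 138 and 103 against 40.3 and 51.9 CPM in the IPs (1.47, adjusted p = 6.49e-04 by edgeR). Crisp2 was at 1983 and 4503 CPM in heterozygous and 593 and 976 CPM in homozygous testis, and overlapped between the IPs (adjusted p = 0.755 by edgeR). The calmodulin gene Calm2 was at 650.2 and 1228 against 1799 and 1826 CPM in the IPs, lower in heterozygotes (-0.86, adjusted p = 0.0363 by edgeR).

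**Figure D5:**
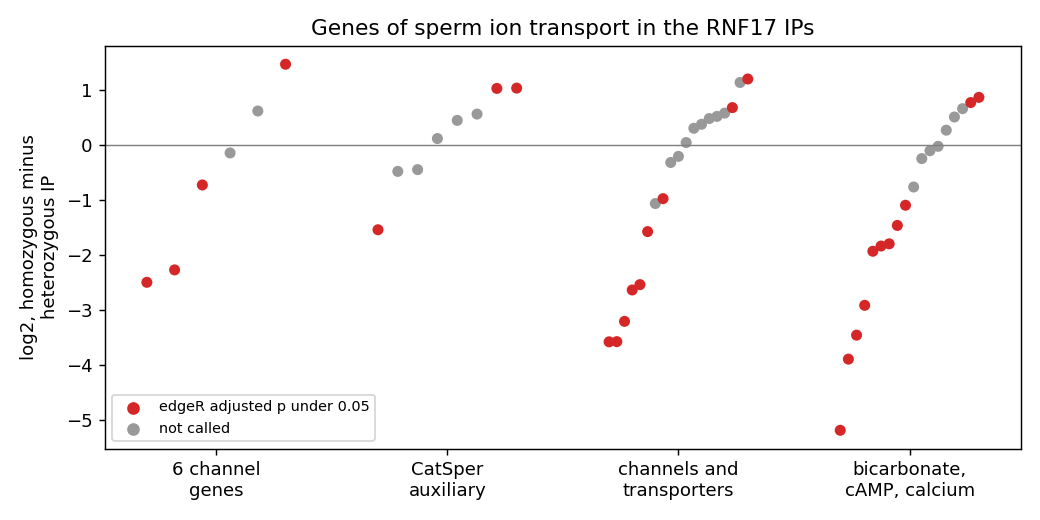
Log2 difference of homozygous minus heterozygous RNF17 IP for each tested gene of the 6 channel genes and the 3 lists, with genes past the edgeR threshold in red. Called genes lie on either side of 0 in each list.

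The spermatid markers differed between the IPs too. Of 23 elongating spermatid genes edgeR called 20 higher in the heterozygous IP and 0 lower, and their sum was 11110 and 10770 CPM in heterozygous and 2561 and 2658 CPM in homozygous IP. Of 19 round spermatid genes 13 were higher and 1 lower, and of 15 pachytene spermatocyte genes 3 and 2. Over all genes tested 17.7% were higher and 12.4% lower, and the pachytene counts were near these shares. Among 11 Sertoli cell genes edgeR called 3 lower in the heterozygous IP. Catsper1, Catsper3 and Catsperb had the direction of the spermatid lists between the IPs, and Catsper4 and Catsper2 the opposite, Catsper2 called by DESeq2 and not by edgeR. The part of these markers in the IP differences was not tested.

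The genes with the profile most like each member were taken by the root mean square difference between log2 CPM profiles over the 8 libraries, each centred on its mean, among 9062 other entries. Catsper1 was closest to Ccdc27 (0.10) and Gm6772 (0.13), Catsper2 to Krr1 (0.16) and Bod1 (0.17), and Catsper3 to Pdilt (0.21) and Usp44 (0.22). Catsperb was closest to Zfp738 (0.20) and Efhc2 (0.20), and Catsper4 to Mns1 (0.33) and Rhcg (0.33). Mns1, a structural protein of sperm flagella, was at 8904 and 10835 CPM in homozygous IP against 728 and 973 CPM in homozygous testis. Kcnu1 lay farther from any other entry, with Gm9839 (0.78) and an antisense piRNA locus (0.81) nearest.

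The channel genes were not each other's nearest. The smallest distance between any pair of them was 0.82, of Catsper2 and Catsper4, and the largest 2.87, of Catsper1 and Kcnu1. Seen from Kcnu1, Catsper4 ranked 21 of the 9062 entries, and seen from Catsper1, its closest member Catsper3 ranked 454. The points share libraries, depth and genotype, and the distances are a description with no test.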

How the data were processed

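RNA libraries were made with not-so-random primers from total or immunoprecipitated RNA, per the labels' protocols. The authors' deposited tables give raw read counts per gene entry on mm9, with 4 columns repeated identically. STAR and DESeq are named in the submitters' processing notes; read assignment and strand use: not given in the sources used here. In addition, the authors' deposited comparison table holds mean normalised counts (a signal), log2 fold changes, their standard errors (treated as a score) and p-values, per the file headers.

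From the counts, each comparison was fitted over all genes with edgeR 4.0.16 in R 4.3.3 (quasi-likelihood test, TMM scaling, filterByExpr, Benjamini-Hochberg adjustment, threshold 0.05) on its own 4 libraries, and the difference of IP over testis between genotypes on all 8. DESeq2 1.42.0, other scaling, no filter, a fit on all 8 libraries, a replicate block and leaving out libraries were alternatives. Scripts were tested on simulated data whose spread was set in advance and not taken from these libraries. That test does not show how the fits behave at the spread measured here. Total counts per library limit precision less than the spread between 2 libraries does.

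The members and lists were chosen with earlier results of these data known. Named are the 6 members, Rnf17, every CatSper partner found, the 6 genes of highest heterozygous testis CPM in each other list, 2 examples of a marker list, and the 2 nearest profiles of a member. A gene that this rule names is not reported here. Unmapped columns numbered 0. The 200 piRNA locus entries stayed in the fits. Transcript lengths came from GENCODE M21 and promoter sequences from RefSeq.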

Additional observations from a re-analysis of the deposited data

How the results depend on the processing

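Counts of genes called by edgeR at an adjusted p under 0.05 depended on the setting. Between testis genotypes 0 genes were called as reported, against 710 with DESeq2, 361 with no filter, 655 in the fit on all 8 libraries, 943 with the replicate block and 3679 without both testis libraries numbered 1 (an alternative chosen after seeing the data). The members called there were 0 as reported, 4 in the last of these and 1 in each of the others. Between the IPs 4042 genes and 4 members were called as reported, and 487 and 1 in the fit on all 8 libraries. For heterozygous IP against testis, 0 genes became 603 with DESeq2, 1 with no filter, 3 in the fit on all 8, 194 with the replicate block and 3926 without the testis libraries numbered 1; members went from 0 to 1 with DESeq2 and with the block, and to 3 in the last. For homozygous IP against testis, 438 genes became 1333, 1469, 51, 1010 and 2467 in the same order, and 2 members became 1 (Kcnu1) in the fit on all 8 and 4 without the libraries numbered 1. For the difference of IP over testis, 0 genes became 245 with DESeq2 and 2141 without the libraries numbered 1, and members 1 and 3. Leaving out each library in turn gave 73 to 1273 genes and 0 to 1 members between testis genotypes, 2069 to 5414 and 3 to 5 between the IPs, 11 to 7278 and 0 to 6 for heterozygous IP against testis, 89 to 4556 and 2 to 4 for homozygous IP against testis, and 0 to 259 and 0 to 1 for the difference.

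Directions turned in 12 of the members' values. In testis, Catsper2 was 0.57 without heterozygous replicate 2 and 0.054 without homozygous replicate 1, and Kcnu1 0.46 without heterozygous replicate 2. Between the IPs, Kcnu1 was -0.34 without heterozygous replicate 2 and -0.22 without homozygous replicate 1. For heterozygous IP against testis, Catsper2 was -0.38 without testis replicate 1, -0.022 without IP replicate 2 and -0.41 without the testis libraries numbered 1. For homozygous IP against testis, Catsper3 was 0.31 without testis replicate 2. For the difference of IP over testis, Catsperb was 0.16 without homozygous testis replicate 1 and 0.17 without both numbered 1, and Kcnu1 0.52 without heterozygous testis replicate 2. Over all such omissions of a single library, Catsper2 and Kcnu1 in testis reached down to -1.11 and -1.27, Catsper2 for heterozygous IP against testis up to 1.20, Catsper3 for homozygous IP against testis down to -0.74, and Catsperb and Kcnu1 for the difference of IP over testis down to -0.66 and -1.20. The cause was not tested. Of the members' other values under alternatives, 263 kept direction and side of the threshold, 43 newly passed it and 6 newly missed it.

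Same-numbered libraries correlated in their deviations at 0.588 between the testis genotypes and -0.119 between homozygous testis and IP. With 2 pairs and no shared source in the labels, the numbers were not taken as pairs. A replicate block with crossed numbers, chosen after seeing the data, called 1787 genes for homozygous IP against testis.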
